A study of Homo sapiens with 21 samples.

Results

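The 36 genes described here encode the machinery of macroautophagy, from the kinase complex that starts an autophagosome to the receptors that bring cargo into it. They were taken from the count table of 54042 genes by matching Ensembl identifiers to the listed symbols, and all 36 were found. Of these, 34 were among the 11610 genes that passed the filter on low counts (about 10 counts or more in at least 3 libraries). ATG101, which stabilises ATG13 in the ULK complex, and ATG4D, one of the proteases that process ATG8 proteins, did not pass. They held 15 and 36 counts over all 21 libraries.

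MV4-11 is a human leukaemia cell line, which the labels call biphenotypic, B-cell and myelomonocytic. The libraries hold HK2 knockout (HK2 KO) cells under ironomycin for 24 h or under DMSO, PGP knockout (PGP KO) cells under ironomycin for 24 h or under DMSO, and wild type cells under DMSO or under ironomycin for 6 h or 24 h. Each of these 7 groups has 3 libraries of the 3′ ends of messages (QuantSeq), counted per gene. Ironomycin, also written AM5, is a salinomycin derivative and DMSO is its solvent. HK2 is a hexokinase, which phosphorylates glucose, and PGP is phosphoglycolate phosphatase. All groups come from the same line, and the labels state neither which treatment time each DMSO library had nor whether a knockout is 1 clone or a pool. Separate cultures are not stated for the replicates, which means that p-values reflect the spread among these libraries alone. The series title concerns mitochondrial iron and cell death.

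In macroautophagy the ULK kinase complex starts the process, and the class III PI3-kinase complex marks a membrane with the lipid PI3P. PI3P-binding WIPI proteins, the lipid transfer protein ATG2 and the vesicle protein ATG9 then supply and extend the membrane, while a ubiquitin-like conjugation system attaches ATG8 proteins (the LC3 and GABARAP families) to it. Cargo receptors bind both ATG8 proteins and the material to be degraded, and the closed autophagosome fuses with a lysosome. Message levels are one layer of this, and lipidation of ATG8 proteins and the flux of cargo were not measured.

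Depth ran over 3829274 to 6069264 counts a library (median 4823817). Replicate 2 of wild type at 6 h stood apart, with an SD over genes of 0.675 (log2) around the other libraries of its group, against 0.332 to 0.480 for the rest. Results at 6 h are therefore also given without it. HK2 messages averaged 22.0 ± 2.49 CPM in HK2 KO DMSO and 52.6 ± 14.7 CPM in wild type DMSO (mean ± SD, n = 3), where CPM are counts scaled to a common library total. PGP messages averaged 75.4 ± 7.10 CPM in PGP KO DMSO and 90.6 ± 4.49 CPM in wild type DMSO. Since the edited sites are not in the labels and a tag at the 3′ end need not be lost by an edit, these levels check neither knockout. Of 10 markers of this leukaemia 9 passed the filter, with a summed level of 496 to 858 CPM per library. Summed levels of epithelial, T-cell, erythroid and fibroblast markers lay at 3.95 to 11.9, 0 to 6.04, 0 to 5.65 and 0 to 1.49 CPM. Because each library was scaled to its own total, fewer cells of a kind and less message per cell cannot be told apart.

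Under ironomycin, the autophagy messages that changed mostly rose, and at 24 h the cargo receptors and ATG8 proteins had the highest share of genes called in each genotype. At 6 h, 12 of the 34 tested genes were higher and 2 lower than in wild type DMSO. A call is an adjusted p under 0.05 in edgeR's quasi-likelihood test, with the Benjamini-Hochberg method applied to all 11610 genes, of which 22% were called at 6 h, 10.9% higher and 11.1% lower. At 24 h, 12 were higher and 1 was lower, against 29.8% of all genes called, 15.3% higher and 14.6% lower. In HK2 KO cells 11 were higher and 1 was lower at 24 h than in DMSO (29.4% of all genes called, 15.9% higher and 13.5% lower). In PGP KO cells 10 were higher and 1 was lower (31.5% of all genes called, 16.1% higher and 15.4% lower), a count that comes to 13 called with the replicate number as a block, which adds ULK1 and TAX1BP1. The share of all genes called with that block is not given here. The median log2 fold change of the 34 genes was 0.27 at 6 h and 0.20 at 24 h in wild type, 0.19 in HK2 KO and 0.22 in PGP KO cells, against 0.02, 0.03, 0.03 and 0.04 over all tested genes. The 6 h and 24 h comparisons of wild type share their DMSO libraries. Fold changes of single genes are given as log2 ± SE, on 3 libraries a group. WIPI1 and GABARAP passed the filter through ironomycin libraries alone, since 0 of the 9 DMSO libraries held 10 counts of either gene. Both had to be high under ironomycin to be tested, so the calls of WIPI1 are no support for a rise of the set. Without these genes, a recount added after the data were seen, 12 of 32 were higher at 6 h, 11 at 24 h in wild type, 10 in HK2 KO and 9 in PGP KO cells, with medians of 0.26, 0.13, 0.15 and 0.18.

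By step, cargo receptors had 4 of 5 genes higher in each of the 4 ironomycin comparisons with DMSO. Counts by step are from the fit without the replicate block, which adds TAX1BP1 and ULK1 as higher in PGP KO cells. ATG8 proteins had 2 of 4 higher at 6 h in wild type and 3 of 4 at 24 h in each genotype. The ULK complex had 2 of its 4 tested genes higher in wild type at both times and 1 in each knockout. Membrane supply had 2 of 5 higher at 6 h, 2 at 24 h in wild type, 2 in HK2 KO and 1 in PGP KO cells, with WIPI1 among them at 24 h in each genotype. ATG8 processing and lipidation, the step with most genes, had 2 of 10 tested genes higher and 1 lower at 6 h, and 1 higher at 24 h in each genotype. In nucleation 1 of 6 genes was lower in each of the 4 comparisons, and 0 were higher. In all, 17 genes were called in at least 1 ironomycin comparison and 17 in none of the 9 comparisons made. Single ironomycin comparisons called 16.6% to 31.5% of all tested genes. The share of all genes called in at least 1 of them was not counted, so the count of 17 is no result about the set. The heat map of fold changes shows the genes in this order of steps.

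**Figure D1:**
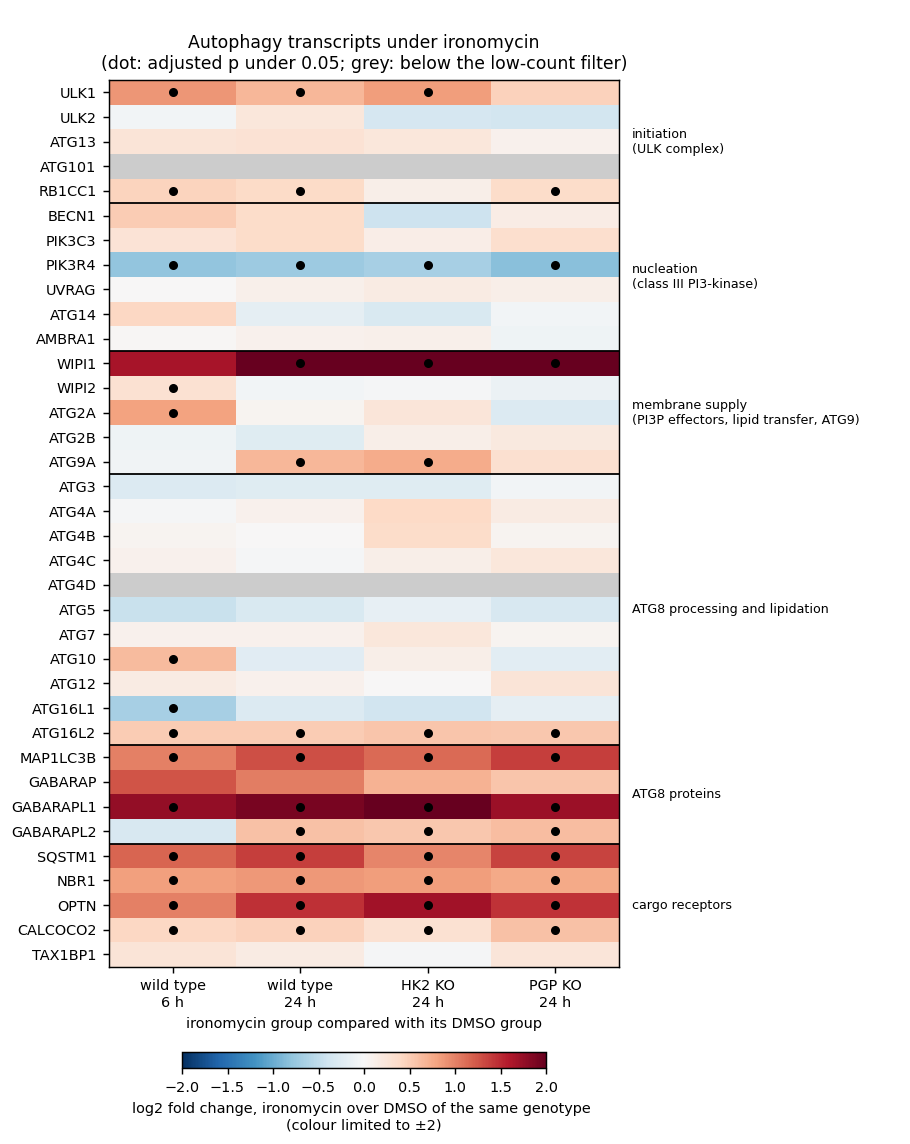
Log2 fold change of the 36 genes (rows, by step) in the 4 comparisons of ironomycin with DMSO of the same genotype (columns); colour is limited to ±2, dots mark an edgeR adjusted p under 0.05 and grey marks ATG101 and ATG4D, which were not tested. Dots gather in the ATG8 proteins and cargo receptors, and PIK3R4 is the gene with a dot for a lower level in all 4 columns.

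ULK1 encodes the kinase that starts autophagy and is itself held in check by mTORC1. ULK1 stood at 34.9, 41.9 and 36.5 CPM in wild type DMSO, 61.7, 87.1 and 61.3 CPM at 6 h and 50.1, 65.3 and 64.9 CPM at 24 h of ironomycin. All 6 treated wild type libraries lay above all 3 DMSO libraries. ULK1 in HK2 KO cells was at 40.6, 56.4 and 56.6 CPM at 24 h, against 30.8, 28.0 and 27.9 CPM in DMSO. ULK1 in PGP KO cells was at 42.5, 63.0 and 80.3 CPM at 24 h, against 45.7, 46.1 and 43.7 CPM in DMSO. The treated libraries lay above DMSO in HK2 KO cells, while 1 treated PGP KO library lay below its DMSO libraries. ULK1 rose by 0.89 ± 0.19 at 6 h (edgeR adjusted p = 0.0014) and 0.67 ± 0.19 at 24 h in wild type (edgeR adjusted p = 0.00835). It also rose by 0.83 ± 0.19 in HK2 KO cells (edgeR adjusted p = 0.0022). In PGP KO cells the difference was 0.46 ± 0.19 (edgeR adjusted p = 0.0671), and with the replicate number as a block it was 0.44 ± 0.16 (edgeR adjusted p = 0.0344). The 6 h rise was 0.70 without 6 h replicate 2 and stayed called.

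RB1CC1, also called FIP200, is the scaffold of the ULK complex. It stood at 126, 120 and 117 CPM in wild type DMSO, 174, 145 and 174 CPM at 6 h and 173, 144 and 156 CPM at 24 h. No treated wild type library overlapped the DMSO libraries. RB1CC1 in HK2 KO cells was at 149, 154 and 147 CPM at 24 h, against 135, 147 and 132 CPM in DMSO. RB1CC1 in PGP KO cells was at 168, 147 and 122 CPM at 24 h, against 138, 104 and 100 CPM in DMSO. The groups overlapped in both knockouts. RB1CC1 rose by 0.44 ± 0.13 at 6 h (edgeR adjusted p = 0.0146) and 0.38 ± 0.13 at 24 h in wild type (edgeR adjusted p = 0.0264). RB1CC1 also rose by 0.36 ± 0.13 in PGP KO cells (edgeR adjusted p = 0.0374), while in HK2 KO cells the difference was 0.12 ± 0.13 (95% interval -0.14 to 0.38, edgeR adjusted p = 0.523). Leaving out wild type DMSO replicate 3 ended the 6 h call (edgeR adjusted p = 0.0583), and leaving out 6 h replicate 2 did not (0.52). At 24 h 5 of the 6 libraries ended the wild type call when left out (edgeR adjusted p at most 0.134), all but 24 h replicate 2. In PGP KO cells 4 of the 6 did (edgeR adjusted p at most 0.271), all but DMSO replicate 1 and 24 h replicate 3. ULK2, the paralogue of ULK1, and ATG13, a regulatory subunit, were not called in any comparison. Their group means ran over 2.05 to 2.90 CPM and 56.6 to 71.8 CPM, and their 95% intervals together spanned -0.58 to 1.04 (log2) at 24 h in wild type. ATG13 by itself was at 0.29 ± 0.12 there (95% interval 0.04 to 0.54, edgeR adjusted p = 0.0728), with its 24 h libraries above DMSO.

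PIK3R4, also called VPS15, is the regulatory subunit that anchors the class III PI3-kinase, and it was the one gene of nucleation that was called. It stood at 17.5, 17.7 and 18.1 CPM in wild type DMSO, 14.9, 6.55 and 9.37 CPM at 6 h and 10.5, 10.3 and 11.3 CPM at 24 h. Every treated wild type library lay below every DMSO library. PIK3R4 in HK2 KO cells was at 11.6, 9.36 and 9.97 CPM at 24 h, against 14.7, 17.1 and 17.1 CPM in DMSO. PIK3R4 in PGP KO cells was at 11.5, 8.60 and 9.94 CPM at 24 h, against 24.1, 13.0 and 16.9 CPM in DMSO. The groups did not overlap in either knockout. PIK3R4 fell by 0.79 ± 0.23 at 6 h (edgeR adjusted p = 0.017) and 0.73 ± 0.23 at 24 h in wild type (edgeR adjusted p = 0.0184). It fell by 0.67 ± 0.23 in HK2 KO (edgeR adjusted p = 0.0346) and 0.83 ± 0.24 in PGP KO cells (edgeR adjusted p = 0.00983). At these low levels single libraries carried weight. The 6 h call ended without 6 h replicate 2 (-0.56, edgeR adjusted p = 0.0904) or 6 h replicate 3 (edgeR adjusted p = 0.0535), and the 24 h call without 24 h replicate 2 (edgeR adjusted p = 0.0509). The HK2 KO call ended without replicate 2 or 3 of either group (edgeR adjusted p at most 0.107), and the PGP KO call without DMSO replicate 1 (edgeR adjusted p = 0.0743).

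The other 5 genes of nucleation were called in none of the 9 comparisons. UVRAG, a beclin 1 partner in the endosomal PI3-kinase complex, stood at 41.1, 37.8 and 45.4 CPM in wild type DMSO, 42.1, 26.6 and 55.3 CPM at 6 h and 42.9, 48.2 and 42.0 CPM at 24 h. The 6 h libraries of UVRAG fell on both sides of the DMSO libraries, with replicate 2 lowest, and the 24 h libraries overlapped them. UVRAG in HK2 KO cells was at 49.1, 40.2 and 46.2 CPM at 24 h, against 36.8, 42.1 and 41.7 CPM in DMSO. UVRAG in PGP KO cells was at 48.6, 40.2 and 55.7 CPM at 24 h, against 51.4, 37.8 and 44.1 CPM in DMSO. Both knockouts overlapped their DMSO libraries as well. The 95% intervals of UVRAG were -0.38 to 0.38 at 6 h, -0.29 to 0.48 at 24 h, -0.22 to 0.55 in HK2 KO and -0.26 to 0.51 in PGP KO cells. Group means ran over 5.81 to 8.69 CPM for BECN1 (beclin 1) and 24.7 to 32.2 CPM for PIK3C3 (VPS34, the catalytic subunit). For ATG14, which directs the complex to autophagy, they ran over 12.2 to 18.3 CPM, and for AMBRA1, a beclin 1 regulator, over 7.14 to 8.89 CPM. The intervals of these 4 genes at 24 h in wild type spanned -0.63 to 1.35 (log2), and that of BECN1 was the widest. PIK3C3 was near the threshold there, at 0.37 ± 0.14 (95% interval 0.08 to 0.67, edgeR adjusted p = 0.0515). All its treated wild type libraries lay above DMSO at 6 h and 24 h.

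WIPI1, a PI3P-binding protein that marks forming autophagosomes, had the largest fold changes of the 34 genes at 24 h and some of the lowest counts. It stood at 0, 0.209 and 0.829 CPM in wild type DMSO, 1.07, 2.18 and 0.562 CPM at 6 h and 2.05, 2.78 and 3.11 CPM at 24 h, which is 6 counts in all in DMSO, 18 at 6 h and 40 at 24 h. WIPI1 in HK2 KO cells was at 1.19, 2.29 and 2.11 CPM at 24 h, against 0.223, 0.170 and 0.384 CPM in DMSO. WIPI1 in PGP KO cells was at 2.51, 6.04 and 2.73 CPM at 24 h, against 0, 0.637 and 0.219 CPM in DMSO. The 24 h libraries of each genotype lay above all its DMSO libraries, while 6 h and DMSO overlapped. In HK2 KO cells 27 counts stood against 4 in DMSO, a ratio after scaling of 7.38 (exact 95% interval 2.57 to 29). In PGP KO cells 52 counts stood against 4 in DMSO, a ratio after scaling of 11.9 (4.38 to 45.3). These intervals cover counting error only. WIPI1 rose by 2.72 ± 0.69 at 24 h in wild type (edgeR adjusted p = 0.00335). WIPI1 also rose by 2.76 ± 0.80 in HK2 KO (edgeR adjusted p = 0.00875) and 3.50 ± 0.73 in PGP KO cells (edgeR adjusted p = 0.00054). These 3 calls were kept on leaving out any 1 library of the groups compared. Since the filter let WIPI1 through on its treated libraries alone, it was also read from the fit with no filter, where the differences were 2.70 in wild type, 2.73 in HK2 KO and 3.49 in PGP KO cells (edgeR adjusted p = 0.00037, 0.00217 and 4.75e-06). At 6 h the difference was 1.65 ± 0.79 (95% interval 0.01 to 3.28, edgeR adjusted p = 0.126). It was 1.03 without 6 h replicate 2, and 3.29 (edgeR adjusted p = 0.0423) without wild type DMSO replicate 3, which held 5 of the 6 DMSO counts. The 3′ end of WIPI1 overlaps ARSG, so with the strand used in counting unknown its level is uncertain.

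ATG9A, the lipid scramblase of the vesicles that seed the membrane, was higher at 24 h and not at 6 h. It stood at 17.1, 22.3 and 19.6 CPM in wild type DMSO, 15.4, 24.2 and 16.7 CPM at 6 h and 30.8, 31.5 and 30.7 CPM at 24 h. The 6 h libraries overlapped DMSO and the 24 h libraries lay above both groups. ATG9A in HK2 KO cells was at 29.4, 31.6 and 28.4 CPM at 24 h, against 17.9, 17.7 and 17.9 CPM in DMSO. ATG9A in PGP KO cells was at 23.7, 26.0 and 26.5 CPM at 24 h, against 21.1, 20.4 and 19.5 CPM in DMSO. The groups did not overlap in either knockout. ATG9A rose by 0.66 ± 0.15 at 24 h in wild type (edgeR adjusted p = 0.00167) and 0.74 ± 0.15 in HK2 KO cells (edgeR adjusted p = 0.000686), and kept these calls without any 1 library. The difference in PGP KO cells was 0.32 ± 0.15 (edgeR adjusted p = 0.118), and at 6 h it was -0.07 ± 0.15 (edgeR adjusted p = 0.779) or -0.30 without 6 h replicate 2. ATG9A overlaps AC068946.2 on the same strand at its 3′ end, so its level is uncertain.

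ATG2A, which moves lipid from the endoplasmic reticulum into the growing membrane, was higher at 6 h and near its DMSO level at 24 h. It stood at 18.4, 16.3 and 15.9 CPM in wild type DMSO, 25.0, 40.6 and 22.9 CPM at 6 h and 17.1, 17.3 and 18.3 CPM at 24 h. The 6 h libraries lay above all the others, with replicate 2 farthest up. ATG2A rose by 0.80 ± 0.20 at 6 h (edgeR adjusted p = 0.00562). Without 6 h replicate 2 the difference was 0.50 and no longer called (edgeR adjusted p = 0.058). At 24 h in wild type the difference from DMSO was 0.06 ± 0.21 (95% interval -0.37 to 0.48, edgeR adjusted p = 0.869). ATG2A in HK2 KO cells was at 19.9, 22.3 and 15.5 CPM at 24 h, against 20.1, 14.6 and 14.4 CPM in DMSO. ATG2A in PGP KO cells was at 13.0, 17.9 and 17.5 CPM at 24 h, against 21.1, 19.8 and 17.8 CPM in DMSO. ATG2A overlapped its DMSO libraries in both knockouts and was not called there.

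WIPI2, the PI3P effector that brings ATG16L1 to the membrane, followed the same course with a smaller change. It stood at 109, 117 and 102 CPM in wild type DMSO, 131, 145 and 130 CPM at 6 h and 102, 105 and 107 CPM at 24 h. The 6 h libraries lay above all DMSO and 24 h libraries. WIPI2 rose by 0.31 ± 0.11 at 6 h (edgeR adjusted p = 0.0431). Of the 6 libraries, all but 6 h replicate 3 ended this call when left out (edgeR adjusted p at most 0.175). The difference was 0.26 without 6 h replicate 2 (edgeR adjusted p = 0.128) and 0.26 without DMSO replicate 3. ATG2B, the paralogue of ATG2A, had group means of 7.04 to 9.45 CPM and was not called in any comparison, with a 95% interval of -0.76 to 0.26 (log2) at 24 h in wild type.

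**Figure D2:**
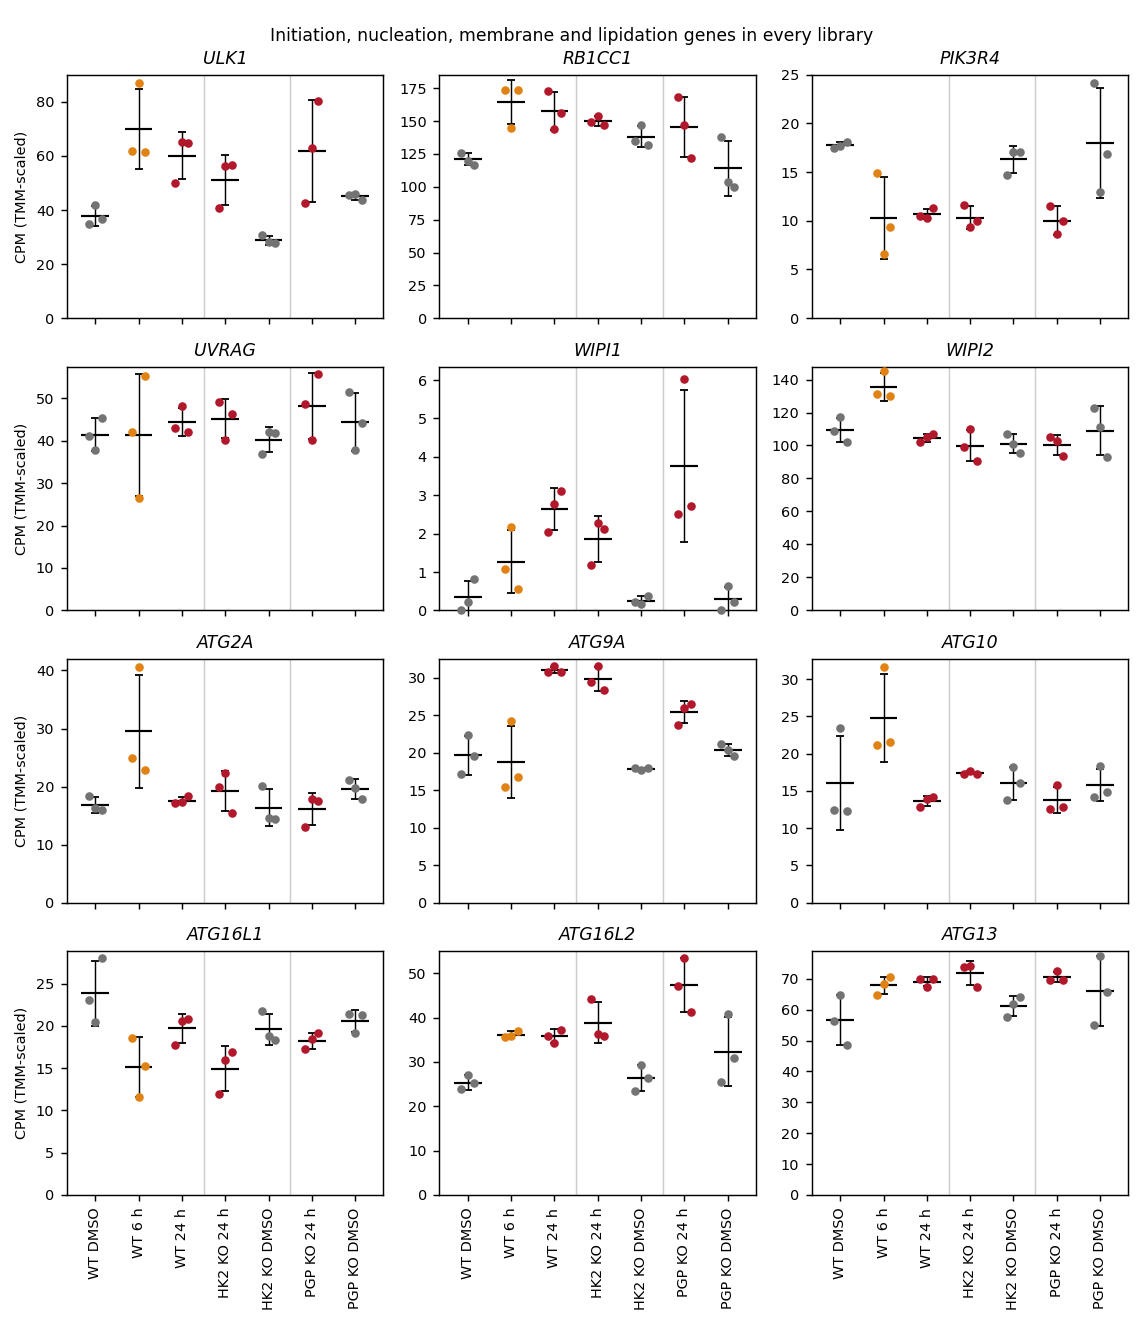
CPM of 12 genes of initiation, nucleation, membrane supply and lipidation in all 21 libraries (points), with the group mean and SD; wild type runs from DMSO to 24 h, and each knockout shows 24 h beside its DMSO. PIK3R4 lies lower in all treated groups, wild type means of ATG2A, WIPI2 and ATG10 peak at 6 h, and those of ATG9A and WIPI1 are highest at 24 h.

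Most genes that process and attach ATG8 proteins did not pass the test. ATG16L1, which places the ATG12-ATG5 conjugate on the membrane, stood at 23.0, 20.5 and 28.0 CPM in wild type DMSO, 18.6, 11.6 and 15.2 CPM at 6 h and 17.7, 20.6 and 20.8 CPM at 24 h. Its 6 h libraries lay below all DMSO libraries and its 24 h libraries overlapped them. ATG16L1 fell by 0.66 ± 0.17 at 6 h (edgeR adjusted p = 0.00866), and the difference was -0.51 without 6 h replicate 2 (edgeR adjusted p = 0.048). Leaving out wild type DMSO replicate 3 ended the call (-0.53, edgeR adjusted p = 0.0661). ATG16L1 in HK2 KO cells was at 11.9, 16.0 and 16.9 CPM at 24 h, against 21.7, 18.8 and 18.3 CPM in DMSO. ATG16L1 in PGP KO cells was at 17.2, 18.4 and 19.1 CPM at 24 h, against 21.4, 19.1 and 21.3 CPM in DMSO. The treated libraries lay below DMSO in both knockouts, in PGP KO cells by less than the rounding of the values given. ATG16L1 was not called at 24 h in any genotype, with differences of -0.28 ± 0.17 in wild type, -0.38 ± 0.18 in HK2 KO and -0.18 ± 0.18 in PGP KO cells (edgeR adjusted p = 0.233, 0.111 and 0.484).

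ATG16L2, a less studied paralogue of ATG16L1, went the other way. ATG16L2 stood at 23.8, 27.1 and 25.2 CPM in wild type DMSO, 35.6, 35.8 and 37.1 CPM at 6 h and 35.9, 34.3 and 37.3 CPM at 24 h. No treated wild type library overlapped DMSO. ATG16L2 in HK2 KO cells was at 44.2, 36.4 and 35.9 CPM at 24 h, against 23.4, 29.4 and 26.3 CPM in DMSO. ATG16L2 in PGP KO cells was at 47.1, 53.5 and 41.3 CPM at 24 h, against 25.4, 40.8 and 30.9 CPM in DMSO. The knockouts did not overlap their DMSO libraries either. ATG16L2 rose by 0.51 ± 0.15 at 6 h (edgeR adjusted p = 0.0182) and 0.50 ± 0.15 at 24 h in wild type (edgeR adjusted p = 0.0153). ATG16L2 also rose by 0.55 ± 0.15 in HK2 KO (edgeR adjusted p = 0.00826) and 0.54 ± 0.15 in PGP KO cells (edgeR adjusted p = 0.00823). These calls were sensitive to single libraries. The 6 h call ended without wild type DMSO replicate 1 or 3 (edgeR adjusted p at most 0.0697) and the 24 h call without either of these or 24 h replicate 3 (at most 0.0704). The HK2 KO call ended without replicate 1 of either group (edgeR adjusted p at most 0.0569), and the PGP KO call without DMSO replicate 1 or 24 h replicate 2 (at most 0.0701). Without 6 h replicate 2 the 6 h rise was 0.52. FCHSD2 overlaps the 3′ end of ATG16L2 on the other strand, and as the strand used in counting is unknown, reads of both genes cannot be told apart.

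ATG10, the E2-like enzyme that passes ATG12 to ATG5, stood at 12.5, 23.4 and 12.3 CPM in wild type DMSO, 21.1, 31.6 and 21.6 CPM at 6 h and 12.9, 13.9 and 14.2 CPM at 24 h. Its 6 h libraries lay above all 24 h libraries and overlapped DMSO. ATG10 rose by 0.63 ± 0.21 at 6 h (edgeR adjusted p = 0.0351). Leaving out 6 h replicate 2 ended the call (0.42, edgeR adjusted p = 0.193), as did leaving out DMSO replicate 1 (edgeR adjusted p = 0.156) or 3 (edgeR adjusted p = 0.188). Its 3′ end overlaps RPS23, a ribosomal protein gene, so its level is uncertain.

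The other 7 tested genes of lipidation were called in none of the 9 comparisons. ATG7, the shared E1-like enzyme, had group means of 12.6 to 15.2 CPM, and ATG3, the E2-like enzyme for ATG8 proteins, of 58.3 to 78.4 CPM. ATG5 and ATG12, which are joined to each other, had 20.2 to 28.4 CPM and 45.0 to 54.0 CPM. Among the proteases that trim ATG8 proteins, ATG4A had 4.48 to 6.25 CPM, ATG4B 41.3 to 53.1 CPM and ATG4C 25.0 to 29.5 CPM. The 95% intervals of the 7 genes at 24 h in wild type spanned -0.69 to 0.70 (log2). ATG4D held 1 count at 24 h against 11 in DMSO in PGP KO cells, a ratio after scaling of 0.0832 (exact 95% interval 0.00193 to 0.572, counting error only). The same ratio was 0.296 to 0.764 in the other 3 comparisons, with intervals that include 1. ATG4D was not called in PGP KO cells when no filter was used (edgeR adjusted p = 0.0806).

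MAP1LC3B, or LC3B, the ATG8 protein most used to mark autophagosomes, rose 2.01- to 2.60-fold in the 4 comparisons. It stood at 30.1, 26.9 and 34.2 CPM in wild type DMSO, 57.8, 52.2 and 73.9 CPM at 6 h and 73.7, 72.0 and 77.8 CPM at 24 h. Every treated wild type library lay above every DMSO library. MAP1LC3B in HK2 KO cells was at 62.4, 62.2 and 67.1 CPM at 24 h, against 24.6, 29.2 and 33.8 CPM in DMSO. MAP1LC3B in PGP KO cells was at 71.6, 66.9 and 67.0 CPM at 24 h, against 28.6, 28.3 and 22.2 CPM in DMSO. For MAP1LC3B too, treated and DMSO libraries were apart in both knockouts. MAP1LC3B rose 2.01-fold at 6 h (log2 1.01 ± 0.14, edgeR adjusted p = 2.25e-05) and 2.44-fold at 24 h (log2 1.29 ± 0.14, edgeR adjusted p = 3.69e-07). The knockouts showed MAP1LC3B 2.18-fold higher in HK2 KO (log2 1.13 ± 0.14, edgeR adjusted p = 3.04e-06) and 2.60-fold higher in PGP KO cells (log2 1.38 ± 0.14, edgeR adjusted p = 2.15e-07). All 4 calls were kept on leaving out any 1 library. Without 6 h replicate 2 the 6 h rise was 1.11. MAP1LC3B2, a near-identical copy that could share its reads, had 0 counts in all libraries.

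GABARAPL1, an ATG8 protein of the GABARAP family, had the largest rise of this step. It stood at 3.34, 4.59 and 3.65 CPM in wild type DMSO, 6.83, 19.2 and 13.3 CPM at 6 h and 11.5, 15.7 and 16.1 CPM at 24 h. Treated and DMSO libraries of wild type did not overlap, and the 6 h group was wide. GABARAPL1 in HK2 KO cells was at 15.4, 18.5 and 14.2 CPM at 24 h, against 2.68, 4.24 and 3.84 CPM in DMSO. GABARAPL1 in PGP KO cells was at 10.5, 17.9 and 16.8 CPM at 24 h, against 3.21, 7.01 and 3.29 CPM in DMSO. For GABARAPL1 too, treated and DMSO libraries were apart in both knockouts. GABARAPL1 rose 3.39-fold at 6 h (log2 1.76 ± 0.34, edgeR adjusted p = 0.000611) and 3.73-fold at 24 h (log2 1.90 ± 0.34, edgeR adjusted p = 0.000143). The knockouts showed GABARAPL1 4.39-fold higher in HK2 KO (log2 2.13 ± 0.34, edgeR adjusted p = 4.74e-05) and 3.27-fold higher in PGP KO cells (log2 1.71 ± 0.34, edgeR adjusted p = 0.000419). Without 6 h replicate 2 the 6 h rise was 1.39 (edgeR adjusted p = 0.00488). No call of GABARAPL1 was lost on leaving out 1 library. GABARAPL3, a near-identical copy, had 0 counts in all libraries.

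GABARAPL2, also called GATE-16, was called higher at 24 h and not at 6 h. It stood at 80.2, 63.9 and 87.7 CPM in wild type DMSO, 68.3, 35.4 and 81.2 CPM at 6 h and 103, 131 and 116 CPM at 24 h. The 6 h libraries overlapped DMSO, and the 24 h libraries lay above both groups. GABARAPL2 in HK2 KO cells was at 96.4, 105 and 130 CPM at 24 h, against 72.6, 76.1 and 79.4 CPM in DMSO. GABARAPL2 in PGP KO cells was at 112, 84.8 and 109 CPM at 24 h, against 77.3, 56.7 and 66.5 CPM in DMSO. For GABARAPL2 too, treated and DMSO libraries were apart in both knockouts. GABARAPL2 rose by 0.59 ± 0.20 at 24 h in wild type (edgeR adjusted p = 0.0283). GABARAPL2 also rose by 0.54 ± 0.20 in HK2 KO (edgeR adjusted p = 0.0465) and 0.61 ± 0.20 in PGP KO cells (edgeR adjusted p = 0.025). These calls were sensitive to single libraries. The wild type call ended without DMSO replicate 1 or 2 or 24 h replicate 2 or 3 (edgeR adjusted p at most 0.147). In HK2 KO cells any library but 24 h replicate 1 ended it (at most 0.219). The PGP KO call ended without DMSO replicate 2 or 3 or 24 h replicate 1 or 3 (at most 0.118). At 6 h the difference was -0.32 ± 0.20 (edgeR adjusted p = 0.273), or -0.05 without 6 h replicate 2.

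GABARAP itself held 10 to 28 counts per group of 3 libraries, and AC120057.2 overlaps its 3′ end on the same strand, so its level is uncertain. It stood at 0.626, 0.835 and 0.663 CPM in wild type DMSO, 2.56, 1.53 and 1.12 CPM at 6 h and 1.64, 2.18 and 0.583 CPM at 24 h. Libraries at 6 h lay above DMSO, and the 24 h libraries overlapped it in all 3 genotypes. GABARAP was not called, with differences of 1.26 ± 0.59 at 6 h and 1.03 ± 0.60 at 24 h in wild type (edgeR adjusted p = 0.123 and 0.2). The differences were 0.69 ± 0.52 in HK2 KO and 0.55 ± 0.65 in PGP KO cells (edgeR adjusted p = 0.34 and 0.55).

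SQSTM1, or p62, the receptor that gathers ubiquitin-tagged proteins, stood at 22.6, 22.3 and 17.1 CPM in wild type DMSO, 44.6, 57.0 and 36.4 CPM at 6 h and 75.4, 42.1 and 45.1 CPM at 24 h. All treated wild type libraries lay above all DMSO libraries. SQSTM1 in HK2 KO cells was at 41.5, 69.5 and 28.4 CPM at 24 h, against 26.6, 23.1 and 21.3 CPM in DMSO. SQSTM1 in PGP KO cells was at 61.6, 60.9 and 28.4 CPM at 24 h, against 27.8, 15.5 and 16.2 CPM in DMSO. For SQSTM1 too, treated and DMSO libraries were apart in both knockouts. SQSTM1 rose 2.23-fold at 6 h (log2 1.16 ± 0.32, edgeR adjusted p = 0.0108) and 2.63-fold at 24 h (log2 1.39 ± 0.31, edgeR adjusted p = 0.0016). The knockouts showed SQSTM1 1.96-fold higher in HK2 KO (log2 0.97 ± 0.31, edgeR adjusted p = 0.0214) and 2.55-fold higher in PGP KO cells (log2 1.35 ± 0.32, edgeR adjusted p = 0.0025). The 6 h call ended when wild type DMSO replicate 3 was left out (1.03, edgeR adjusted p = 0.0583) and not without 6 h replicate 2 (0.97). The HK2 KO call ended without 24 h replicate 2 (0.56, edgeR adjusted p = 0.211), DMSO replicate 2 (edgeR adjusted p = 0.0717) or DMSO replicate 3 (edgeR adjusted p = 0.0838). MRNIP overlaps the 3′ end of SQSTM1, so its level is uncertain.

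NBR1, a receptor that works beside p62 on ubiquitin-tagged cargo, stood at 44.9, 54.5 and 45.1 CPM in wild type DMSO, 75.6, 93.4 and 86.8 CPM at 6 h and 84.0, 94.6 and 83.0 CPM at 24 h. Treated and DMSO libraries of wild type did not overlap. NBR1 in HK2 KO cells was at 71.5, 95.3 and 84.7 CPM at 24 h, against 42.6, 47.7 and 51.3 CPM in DMSO. NBR1 in PGP KO cells was at 74.3, 82.7 and 75.6 CPM at 24 h, against 44.9, 46.1 and 47.6 CPM in DMSO. For NBR1 too, treated and DMSO libraries were apart in both knockouts. NBR1 rose by 0.82 ± 0.12 at 6 h (edgeR adjusted p = 4.85e-05) and 0.86 ± 0.12 at 24 h in wild type (edgeR adjusted p = 1.31e-05). NBR1 also rose by 0.83 ± 0.12 in HK2 KO (edgeR adjusted p = 2.45e-05) and 0.75 ± 0.12 in PGP KO cells (edgeR adjusted p = 8.01e-05). Each of these 4 calls was kept without any 1 library, with a 6 h rise of 0.75 without 6 h replicate 2.

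OPTN, optineurin, a receptor used in the removal of damaged mitochondria, stood at 7.52, 10.6 and 8.79 CPM in wild type DMSO, 11.5, 22.7 and 19.9 CPM at 6 h and 26.9, 26.2 and 21.4 CPM at 24 h. No treated wild type library overlapped DMSO. OPTN in HK2 KO cells was at 24.9, 28.3 and 23.8 CPM at 24 h, against 8.71, 7.64 and 7.69 CPM in DMSO. OPTN in PGP KO cells was at 32.3, 23.0 and 20.8 CPM at 24 h, against 8.56, 8.29 and 11.0 CPM in DMSO. For OPTN too, treated and DMSO libraries were apart in both knockouts. OPTN rose 2.01-fold at 6 h (log2 1.01 ± 0.23, edgeR adjusted p = 0.00256) and 2.76-fold at 24 h (log2 1.46 ± 0.22, edgeR adjusted p = 2.51e-05). The knockouts showed OPTN 3.21-fold higher in HK2 KO (log2 1.68 ± 0.23, edgeR adjusted p = 6.51e-06) and 2.73-fold higher in PGP KO cells (log2 1.45 ± 0.23, edgeR adjusted p = 3.64e-05). These calls were kept on leaving out any 1 library, with a 6 h rise of 0.81 without 6 h replicate 2.

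CALCOCO2, or NDP52, a receptor for bacteria and damaged mitochondria, rose by a smaller factor. It stood at 130, 119 and 113 CPM in wild type DMSO, 186, 158 and 142 CPM at 6 h and 162, 182 and 156 CPM at 24 h. No treated wild type library overlapped DMSO. CALCOCO2 in HK2 KO cells was at 169, 172 and 156 CPM at 24 h, against 130, 140 and 130 CPM in DMSO. CALCOCO2 in PGP KO cells was at 170, 176 and 161 CPM at 24 h, against 132, 99.6 and 105 CPM in DMSO. For CALCOCO2 too, treated and DMSO libraries were apart in both knockouts. CALCOCO2 rose by 0.42 ± 0.12 at 6 h (edgeR adjusted p = 0.0112) and 0.46 ± 0.12 at 24 h in wild type (edgeR adjusted p = 0.00375). CALCOCO2 also rose by 0.31 ± 0.12 in HK2 KO (edgeR adjusted p = 0.0475) and 0.59 ± 0.12 in PGP KO cells (edgeR adjusted p = 0.000449). The HK2 KO call ended on leaving out any of the 6 libraries (edgeR adjusted p at most 0.158). The 6 h call ended without DMSO replicate 3 (edgeR adjusted p = 0.0609) or 6 h replicate 1 (edgeR adjusted p = 0.0685), and the rise was 0.44 without 6 h replicate 2.

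TAX1BP1, a relative of CALCOCO2 that also binds ubiquitin, was the one receptor that was not called in the fit without the replicate block. It stood at 291, 296 and 238 CPM in wild type DMSO, 350, 330 and 307 CPM at 6 h and 325, 308 and 287 CPM at 24 h. Libraries at 6 h lay above DMSO and those at 24 h overlapped it. TAX1BP1 in HK2 KO cells was at 336, 324 and 292 CPM at 24 h, against 338, 334 and 296 CPM in DMSO. TAX1BP1 in PGP KO cells was at 350, 354 and 328 CPM at 24 h, against 347, 269 and 258 CPM in DMSO. TAX1BP1 overlapped its DMSO libraries in both knockouts. Its differences were 0.26 ± 0.11 at 6 h (edgeR adjusted p = 0.108) and 0.16 ± 0.11 at 24 h in wild type (edgeR adjusted p = 0.319). They were -0.02 ± 0.11 in HK2 KO (edgeR adjusted p = 0.904) and 0.24 ± 0.11 in PGP KO cells (edgeR adjusted p = 0.115). With the replicate number as a block the PGP KO difference of 0.25 ± 0.09 was called (edgeR adjusted p = 0.0266).

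**Figure D3:**
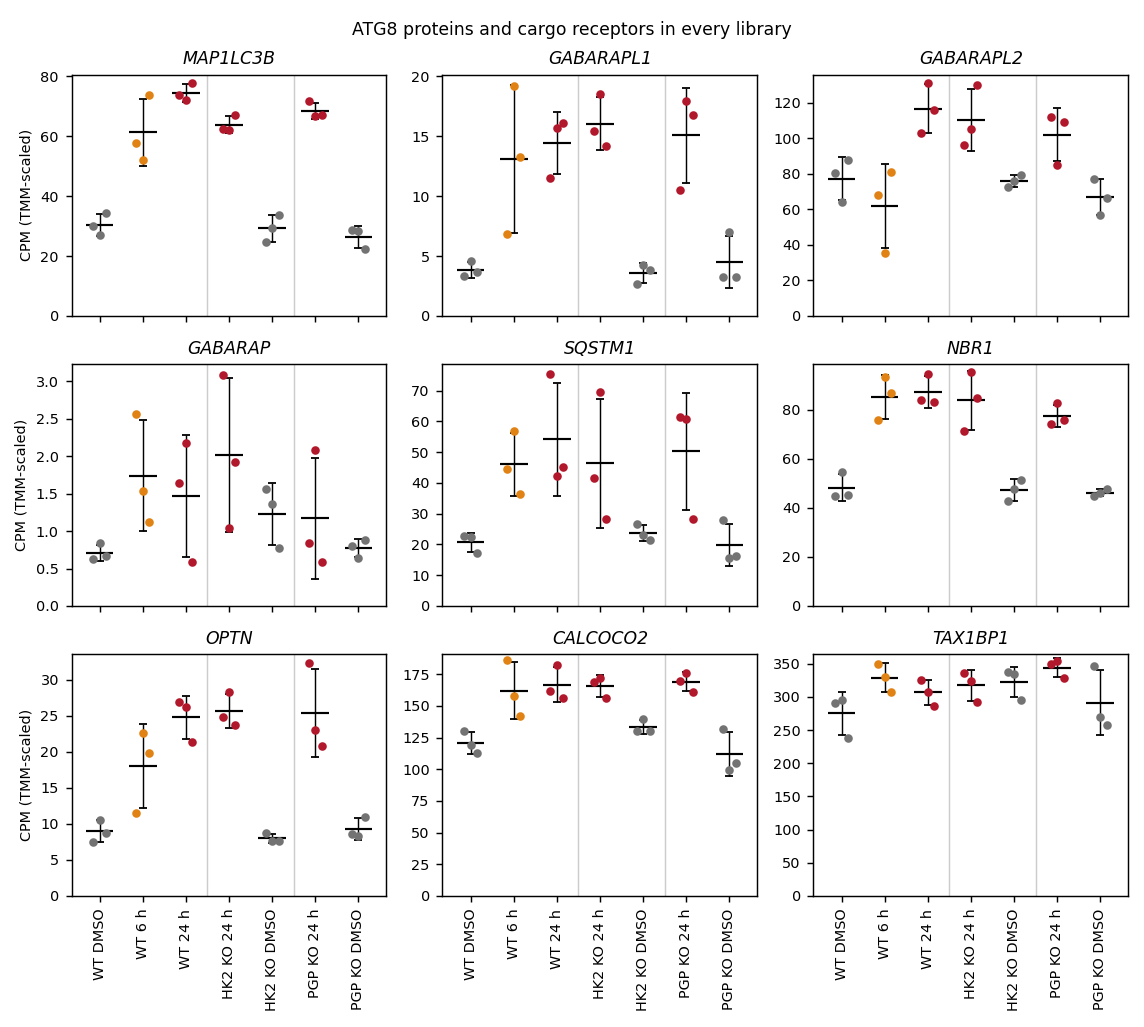
CPM of the 4 ATG8 proteins and 5 cargo receptors in all 21 libraries (points), with the group mean and SD; wild type runs from DMSO to 24 h, and each knockout shows 24 h beside its DMSO. In MAP1LC3B, GABARAPL1, SQSTM1, NBR1, OPTN and CALCOCO2 every treated library lies above every DMSO library of its genotype, while TAX1BP1 overlaps in all 3 genotypes at 24 h.

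The DNA before the start sites was searched for motifs of factors known to act on autophagy genes, on both strands. The window was the 250 bases upstream of each gene's first listed start in RefSeq (GRCh38.p14). Other starts of a gene were not searched, and whether the listed start is its main promoter was not checked. Of the 36 genes 33 had an entry. The searched letters were CACGTG (the E-box bound by TFEB and other factors), TCACGTGA (an extended E-box, which holds an E-box), TGATGNAA (an ATF4-type element) and TGACNNNGC (an antioxidant-type element bound by NRF2 and related factors). The E-box was in 2 of 33 windows (ATG14 and ATG3) and in 6.34% of all 35116 promoters of the table. The extended E-box and the ATF4-type element were in 0 of the 33, against 0.854% and 3.14% of all. The antioxidant-type element was in 3 of 33 (MAP1LC3B, CALCOCO2 and ATG101), or 9.09%, against 10.9% of all, and so in 2 of the 9 genes that were higher at 24 h in every genotype. The rest of these 9 genes, SQSTM1, NBR1 and OPTN among them, had no match to this motif. The windows of MAP1LC3B and CALCOCO2 are shown because both genes rose in all 4 comparisons and both windows hold the motif, given in capitals as it reads on the gene's strand. It lies 46 to 38 bases before the MAP1LC3B start (chr16:87392086-87392335, plus strand). In CALCOCO2 its reverse complement lies 129 to 121 bases before the start (chr17:48830785-48831034, plus strand).
MAP1LC3B: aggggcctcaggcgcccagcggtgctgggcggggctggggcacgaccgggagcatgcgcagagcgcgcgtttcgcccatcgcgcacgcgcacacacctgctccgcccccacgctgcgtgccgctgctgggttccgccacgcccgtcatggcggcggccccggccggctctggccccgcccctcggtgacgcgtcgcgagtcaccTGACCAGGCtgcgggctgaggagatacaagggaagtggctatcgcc
CALCOCO2: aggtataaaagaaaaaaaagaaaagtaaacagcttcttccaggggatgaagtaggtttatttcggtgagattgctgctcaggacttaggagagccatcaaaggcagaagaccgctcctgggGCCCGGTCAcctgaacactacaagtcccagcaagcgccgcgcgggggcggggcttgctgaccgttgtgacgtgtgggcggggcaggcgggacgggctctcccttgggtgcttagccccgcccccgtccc
A match of letters describes the window and shows no binding. Windows picked for both a rise and a match cannot show a link between them.

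The comparison of 24 h with 6 h in wild type cells sets late against early levels. At 24 h, 2 genes were higher than at 6 h and 3 were lower, where 16.6% of all tested genes were called, 8.48% higher and 8.08% lower. ATG9A rose by 0.73 ± 0.15 and GABARAPL2 by 0.92 ± 0.20 (edgeR adjusted p = 0.00161 and 0.00301). ATG10 fell by 0.85 ± 0.21, ATG2A by 0.75 ± 0.20 and WIPI2 by 0.37 ± 0.11 (edgeR adjusted p = 0.00767, 0.012 and 0.02). The 24 h libraries of these 5 genes, given above, did not overlap the 6 h libraries. Without 6 h replicate 2 the genes that were higher stayed called (ATG9A 0.95 and GABARAPL2 0.64). The 3 lower genes did not, at -0.64 for ATG10, -0.45 for ATG2A and -0.32 for WIPI2 (edgeR adjusted p = 0.0519, 0.114 and 0.0661). The WIPI2 call also ended without 24 h replicate 1 or 2. With the 2 groups fitted alone, ATG10 was the 1 gene called, and ATG9A, GABARAPL2, ATG2A and WIPI2 were not (edgeR adjusted p = 0.0588, 0.0644, 0.09 and 0.0991). Over all genes that fit called 749, against 1922 in the main fit. Set against DMSO, 9 genes were called higher at both times, 3 at 6 h alone (WIPI2, ATG2A and ATG10) and 3 at 24 h alone (WIPI1, ATG9A and GABARAPL2). The shares of all tested genes called in these ways were not counted, so the counts are no result about the set. WIPI1, which passed the filter through its treated libraries alone, was not called between the times.

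The knockouts were compared with wild type in DMSO, and then in their response to 24 h of ironomycin. In DMSO, 0 of the 34 tested genes were called in HK2 KO and 0 in PGP KO cells (edgeR; 0 and 1 at an unadjusted p under 0.05; DESeq2 called 0 in both), where 0.00861% and 0% of all tested genes were called. ULK1 stood at 30.8, 28.0 and 27.9 CPM in HK2 KO DMSO and 45.7, 46.1 and 43.7 CPM in PGP KO DMSO, against 34.9, 41.9 and 36.5 CPM in wild type DMSO. The HK2 KO libraries lay below and the PGP KO libraries above all wild type libraries, which both comparisons share. ULK1 was not alone in this. In HK2 KO DMSO, RB1CC1, PIK3C3 and TAX1BP1 also lay above all wild type DMSO libraries and PIK3R4 below. In PGP KO DMSO, ATG4D, which did not pass the filter, also lay above. The share of all genes with such a separation was not counted, so these separations show no difference between a knockout and wild type. The ULK1 differences of -0.39 ± 0.19 in HK2 KO (95% interval -0.79 to 0.01) and 0.26 ± 0.19 in PGP KO (-0.14 to 0.65) were not called (edgeR adjusted p = 0.964 and 0.9). The gene with an unadjusted p under 0.05 was ATG16L2, at 25.4, 40.8 and 30.9 CPM in PGP KO DMSO against 23.8, 27.1 and 25.2 CPM in wild type DMSO, a difference of 0.36 ± 0.15 (edgeR adjusted p = 0.875). Over the 34 genes the differences in DMSO lay between -0.52 and 0.77 in HK2 KO and between -0.29 and 0.36 in PGP KO cells (log2). The ends in HK2 KO are genes with few counts, WIPI1 (4 counts against 6 in wild type) and GABARAP (19 against 11).

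At 24 h, 9 genes were called higher in every genotype (MAP1LC3B, GABARAPL1, GABARAPL2, SQSTM1, NBR1, OPTN, CALCOCO2, WIPI1 and ATG16L2), as were 9.91% of all tested genes. WIPI1 passed the filter through its treated libraries alone and is no support for this count. PIK3R4 alone was lower in every genotype, as were 9.66% of all tested genes. The difference between the response of a knockout and that of wild type was called for 0 of the 34 genes in HK2 KO and 0 in PGP KO cells (edgeR; 0 and 0 at an unadjusted p under 0.05; DESeq2 called 0 in both), and for 0% of all tested genes in each. For MAP1LC3B it was -0.16 ± 0.20 in HK2 KO (95% interval -0.57 to 0.25) and 0.09 ± 0.20 in PGP KO cells (-0.32 to 0.51). For SQSTM1 it was -0.42 ± 0.44 in HK2 KO (-1.34 to 0.50) and -0.04 ± 0.45 in PGP KO cells (-0.97 to 0.89). For GABARAPL1 it was 0.23 ± 0.49 in HK2 KO (-0.77 to 1.24) and -0.19 ± 0.48 in PGP KO cells (-1.19 to 0.81). These intervals leave room for differences as large as the changes of several genes, so the responses are not shown to be equal. ULK1, RB1CC1 and ATG9A were called in 2 of the 3 genotypes, and since their differences in response were not called, they are not shown to differ by genotype. With the replicate block ULK1 was called higher in PGP KO cells too (edgeR adjusted p = 0.0344), and so in all 3 genotypes. The HK2 KO and PGP KO comparisons share no library. Their 24 h fold changes over the 34 tested genes correlated with Pearson r = 0.927, or 0.895 over 32 without WIPI1 and GABARAP, a description across genes that are not independent replicates.

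**Figure D4:**
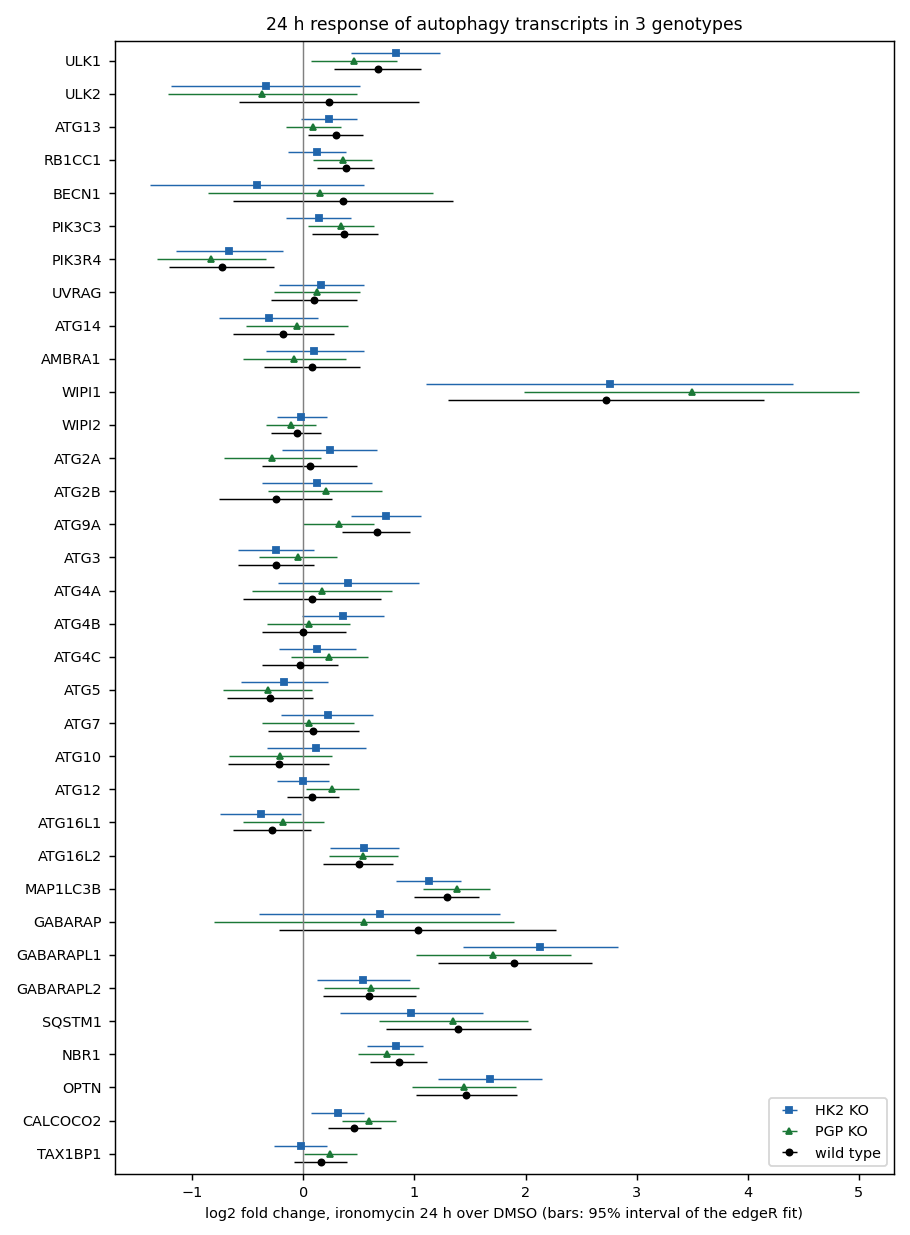
Log2 fold change at 24 h of ironomycin over DMSO for the 34 tested genes (rows) in HK2 KO, PGP KO and wild type cells, with 95% intervals of the edgeR fit as bars. The intervals of the 3 genotypes overlap for every gene, and PIK3R4 lies left of 0 in all 3 while MAP1LC3B, GABARAPL1, NBR1, OPTN and WIPI1 lie right of it.

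Genes that other work has tied to a factor were counted within the set. Of 12 genes reported as ATF4 or CHOP targets in mouse fibroblasts, 4 were higher and 1 was lower at 6 h, and 4 were higher at 24 h in wild type. Of the 22 other tested genes, 8 were higher and 1 was lower at each time. Over all tested genes 10.9% were higher at 6 h and 15.3% at 24 h. Of 4 genes reported as TFEB targets in human HeLa cells (MAP1LC3B, SQSTM1, UVRAG and WIPI1), 2 were higher at 6 h and 3 at 24 h, WIPI1 among the 3, against 10 and 9 of the 30 other tested genes. The median log2 fold change at 24 h was 0.23 for the 12 genes against 0.20 for the 22 others, and 1.34 for the 4 genes against 0.12 for the 30 others. The 4 genes were at 1.29 (MAP1LC3B), 1.39 (SQSTM1), 0.10 (UVRAG) and 2.72 (WIPI1). WIPI1, which is also among the 22 others, and GABARAP, among the 12 and among the 30 others, passed the filter through ironomycin libraries alone. Their values are therefore no support for a rise of either list or for a gap between the medians. The medians of these lists were not recounted without them. Membership of these lists does not show which factor acted here.

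Other genes of the pathway were counted in 4 further lists. Of 11 tested core factors outside the set, 2 were higher at 6 h, 3 at 24 h in wild type, 2 in HK2 KO and 4 in PGP KO cells, and 0 were lower. These are 18.2%, 27.3%, 18.2% and 36.4% of the list, against 10.9%, 15.3%, 15.9% and 16.1% of all tested genes that were higher. Means in the sentences that follow are ± SD over 3 wild type libraries. TMEM41B, a lipid scramblase of the endoplasmic reticulum, averaged 24.0 ± 1.15 CPM at 24 h against 11.9 ± 4.02 CPM in DMSO and rose by 1.00 ± 0.27 (edgeR adjusted p = 0.00646). Without wild type DMSO replicate 1 the TMEM41B call ended (edgeR adjusted p = 0.0506). ZFYVE1, also called DFCP1, which marks the site of autophagosome formation, averaged 27.6 ± 4.79 CPM at 24 h against 15.7 ± 1.04 CPM in DMSO and rose by 0.81 ± 0.20 (edgeR adjusted p = 0.004). In the knockouts ZFYVE1 was not called, at 0.47 ± 0.20 in HK2 KO and 0.48 ± 0.20 in PGP KO cells (edgeR adjusted p = 0.0844 and 0.0754, and 0.045 in PGP KO with the block), while TMEM41B was higher in both. Of 16 genes of fusion with the lysosome, 2 were higher and 1 lower at 6 h (RAB7A), 4 and 1 at 24 h in wild type (VAMP8), 3 and 0 in HK2 KO, and 3 and 1 in PGP KO cells (VAMP8). The higher genes are 12.5%, 25.0%, 18.8% and 18.8% of the list, near the shares of all genes in all but wild type at 24 h. RUBCN, Rubicon, an inhibitor of the UVRAG-bound PI3-kinase complex, averaged 25.7 ± 5.04 CPM at 24 h against 15.1 ± 1.94 CPM in DMSO and rose by 0.77 ± 0.18 (edgeR adjusted p = 0.0026). RUBCN also rose by 0.96 ± 0.18 in HK2 KO cells (edgeR adjusted p = 0.000415), and in PGP KO cells its difference was 0.43 ± 0.18 (edgeR adjusted p = 0.0819, and 0.0322 with the block). VPS41, a subunit of the HOPS tether, averaged 60.4 ± 3.03 CPM at 24 h against 38.4 ± 6.36 CPM in DMSO and rose by 0.65 ± 0.15 (edgeR adjusted p = 0.00147). VPS41 was called higher in both knockouts.

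Of 15 tested receptors of selective autophagy and mitophagy outside the set, 4 were higher in wild type at 6 h, 4 at 24 h, 5 in HK2 KO and 4 in PGP KO cells, and ATL3, a receptor on tubules of the endoplasmic reticulum, was the 1 lower gene in each. The higher genes are 26.7%, 26.7%, 33.3% and 26.7% of the list. Median log2 fold changes of this list were 0.12, 0.02, 0.01 and 0.13 in the same order. RETREG1, also called FAM134B, a receptor for the endoplasmic reticulum, averaged 12.6 ± 1.74 CPM at 24 h against 3.11 ± 1.31 CPM in DMSO and rose by 2.01 ± 0.31 (edgeR adjusted p = 3.1e-05). CCPG1, another such receptor, averaged 95.8 ± 15.9 CPM at 24 h against 25.0 ± 2.70 CPM in DMSO and rose by 1.93 ± 0.29 (edgeR adjusted p = 1.95e-05). Of 22 tested upstream regulators, 6 were higher at each time in wild type and 8 in HK2 KO cells with 0 lower, and 5 were higher and 1 lower (RHEB) in PGP KO cells, where the higher genes are 27.3% at each time in wild type, 36.4% and 22.7% of the list. RRAGD, a Rag GTPase that brings mTORC1 to the lysosome, averaged 16.5 ± 2.05 CPM at 24 h against 6.09 ± 1.41 CPM in DMSO and rose by 1.45 ± 0.25 (edgeR adjusted p = 9.96e-05). FOXO3, a transcription factor with autophagy genes among its targets, averaged 40.5 ± 0.776 CPM at 24 h against 21.5 ± 3.91 CPM in DMSO and rose by 0.91 ± 0.14 (edgeR adjusted p = 2.64e-05). RETREG1, CCPG1, RRAGD and FOXO3 were called higher in both knockouts as well.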

How the data were processed

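RNA was prepared with a Qiagen RNeasy kit and made into Lexogen QuantSeq 3′ libraries, per the labels' protocols, so each read tags the end of a message and counts need no length correction. The authors deposited raw counts per Ensembl gene for 21 libraries. The tools listed in the submitters' processing notes are bcl2fastq 2.20.0.422, HISAT2 and HTSeq, with the genome build hg19. The annotation release and the strand setting are not given in the sources used here. Symbols matched 51661 of the 54042 rows.

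One edgeR 4.0.16 quasi-likelihood model (limma 3.58.1, R 4.3.3) was fitted to all 7 groups, with TMM size factors and filterByExpr by group (minimum count 10, minimum total 15). Its common biological coefficient of variation was 0.149. CPM are counts divided by the TMM-scaled library size. Benjamini-Hochberg adjustment ran over 11610 genes and 9 comparisons were made, each adjusted on its own. Log2 fold changes are edgeR's, slightly shrunken by its default prior count, and 95% intervals are centred on them. SEs were taken from the fit without that shrinkage. Alternatives were RLE size factors, a fit with no filter, a fit of the compared groups alone, a block for replicate number, leaving out each library, and DESeq2 1.42.0. No 2 libraries were copies of one another (highest correlation of log2 CPM 0.9874).

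Members and lists were chosen with earlier results of these data known. Values per library were set by rule for MAP1LC3B, SQSTM1, ULK1, the called genes with the 12 smallest adjusted p in wild type, and the highest gene of a step with none. PIK3R4, ATG16L2, GABARAPL2, ATG10, WIPI2, GABARAP and TAX1BP1 were added after their values were seen, as were RAB7A, VAMP8, ATL3 and RHEB. In the other lists the 2 called genes with the largest change at 24 h are named.

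Same-numbered libraries of PGP KO at 24 h and DMSO deviated together in all 3 pairs (correlations 0.243, 0.164 and 0.247 over genes). In each other comparison a pair was weaker than these. Correlations there ran from -0.0394 to 0.347, so pairing is neither shown nor excluded. For PGP KO at 24 h against DMSO the numbers were treated as pairs in the fit with the block alone, from the data and not from the labels. Unless the block or another alternative is named, PGP KO values, counts and figures are from the fit without it. Overlaps were read from GENCODE 29 within the last 1000 exonic bases of each gene and touch 10 of the 36 genes: ATG10, ATG101, ATG16L2, ATG4D, ATG7, ATG9A, BECN1, GABARAP, SQSTM1 and WIPI1. Promoters are from a RefSeq table. Python 3.11.15 (pandas 2.3.3, numpy 2.4.6, matplotlib 3.10.9) served for tables and figures.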

Additional observations from a re-analysis of the deposited data

How the results depend on the processing

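Of 55 calls of a gene in a comparison, 54 held with RLE size factors, 49 without a filter, 55 with DESeq2 and 55 with the replicate number as a block. Among the 54 that could be compared, 43 held when the compared groups were fitted alone, a fit that has fewer libraries. It called 8 genes of the set at 6 h and 1 (ATG10) at 24 h against 6 h. Over all genes it called 1212 and 749, against 2556 and 1922 in the main fit. Leaving out 1 library kept 263 of 330 calls and turned 0 around. The number of genes called then ran over 8 to 13 at 6 h, 10 to 12 at 24 h, 2 to 6 at 24 h against 6 h, 8 to 10 in HK2 KO, 9 to 10 in PGP KO, and 0 in the comparisons of knockouts with wild type. It was 8 at 6 h without wild type DMSO replicate 3, 10 at 6 h without 6 h replicate 2, and 2 at 24 h against 6 h without 6 h replicate 2. Over all genes, 1776 were called at 6 h without that DMSO library. Without that 6 h library, 1600 were called at 24 h against 6 h. With the replicate block, 16, 15, 6, 12 and 13 genes were called at 6 h, at 24 h, at 24 h against 6 h, in HK2 KO and in PGP KO, and 0 in the rest. How many of all genes were called with it is not given here, so the added calls are no result about the set. The block added TAX1BP1 and ULK1 in PGP KO cells. Where the numbers were not taken to pair libraries, it added ATG5 and TAX1BP1 at 6 h, PIK3C3 and ATG13 at 24 h and ATG14 at 24 h against 6 h.

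Values near 0 that were not called changed sign in places, and the cause was not tested. On leaving out 1 library UVRAG ran over -0.27 to 0.23 at 6 h (0.00 with the compared groups alone) and -0.01 to 0.22 in PGP KO cells. ATG9A ran over -0.30 to 0.06 at 6 h, ATG2A over 0.00 to 0.11 at 24 h, TAX1BP1 over -0.10 to 0.01 in HK2 KO and GABARAP over -0.14 to 0.87 in PGP KO cells. The difference in response of PGP KO cells and wild type ran over -0.03 to 0.17 for MAP1LC3B, -0.39 to 0.30 for GABARAPL1 and -0.23 to 0.26 for SQSTM1. At 3 libraries a group, genes with a few counts a library, such as WIPI1, GABARAP and ULK2, have wide intervals.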
